A study of Parasteatoda tepidariorum with 12 samples.

Results

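The *u-shaped* (*ush*) genes of *Parasteatoda tepidariorum*, the common house spider, were followed through early embryogenesis with and without parental RNAi (pRNAi) against *fuchi nashi* (*fuchi*, gene model *g26874*). Of the 27990 gene models in the count table, 2 were described as *ush* genes, and both were taken by their identifiers: aug3.g14866 (*g14866*), described as zinc finger protein ush-like, and aug3.g16893 (*g16893*), described as zinc finger protein ush. The rule used no measured value, although the choice was made with earlier results of these data known. The libraries came from whole embryos sampled 11 h (stage 2), 20 h (stage 3) or 31 h (early stage 5) past egg laying, with 50 to 100 embryos of the Osaka isolate pooled in each. The 2 females each laid an untreated egg sac, labelled day 0, and a *fuchi* pRNAi egg sac, labelled day 19 for female 1 and day 18 for female 2, after repeated injections of *fuchi* double-stranded RNA into the mother. This gave 12 libraries in 6 groups of 2. All untreated eggs were laid before injection and none of the females analysed here received a control double-stranded RNA, so that the effect of *fuchi* depletion, the injection and the later egg sac cannot be told apart.

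U-shaped of *Drosophila* belongs to the Friend of GATA (FOG) family of multi-zinc-finger proteins. FOG proteins do not act by binding DNA on their own: they attach to the amino-terminal zinc finger of a GATA transcription factor and change what it does to its target genes, often by bringing in the C-terminal-binding protein (CtBP) or the NuRD histone deacetylase complex. In the fly, U-shaped is the partner of the GATA factors Pannier and Serpent and takes part in dorsal patterning, heart and blood cell development, and it lies downstream of the BMP ligand Dpp in dorsal tissue. In vertebrates, the family members ZFPM1 and ZFPM2 work with GATA factors in blood and heart. The spider target *fuchi* encodes a GATA-like protein, so the *ush* homologs belong to a family of candidate cofactors; no binding was measured here.

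In the Ptep_1.0 assembly, *g14866* lies on the plus strand of scaffold 1988 from 308326 to 332905, a span of 24.6 kb, as the last of the 7 gene models of that scaffold, and corresponds to NCBI gene LOC107440842. The model *g16893* (LOC107442891) lies on the minus strand of scaffold 2350 from 193427 to 396084. It spans 202.7 kb and is the 12th of 13 gene models there. Neither model overlapped another, and each was the only model of its NCBI gene. These positions are spans of whole gene models with their introns, and exon limits were not used here. The primer pair with which the study cloned a *g16893* cDNA fragment for an RNAi screen apart from these libraries is shown because it ties this gene model to a stretch of its transcript, 5′ to 3′ with the EcoRI cloning site in capitals.
*g16893* forward: gGAATTCcgagaagaaagcagtcaaatcc
*g16893* reverse: gGAATTCtgcttctcttgatgcatttcca

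The libraries held 5662766 to 8857990 counts over all gene models, with 14639 to 16929 gene models counted at least once. Levels are given as CPM, counts scaled to 1 common library total, with totals corrected by TMM factors of 0.789 to 1.21, and 3 counts, the limit that a count of 0 allows, came to 0.299 to 0.672 CPM. A gene model was called changed at a Benjamini-Hochberg adjusted p under 0.01 in the quasi-likelihood test of edgeR over all gene models tested. The targeted gene *fuchi* was at 25.2% of its untreated level in female 1 and 15.1% in female 2 for stage 2. The shares were 24.4% and 22.8% for stage 3, then 44.5% and 35.7% for early stage 5. Its fall was called at stage 3 (log2 fold change -2.07 ± 0.27 SE, adjusted p = 0.00552), and called again 11 h later at -1.40 ± 0.22 (adjusted p = 0.00705).

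In untreated embryos, *g14866* formed a short peak at stage 3. Its level was 3.53 CPM in female 1 and 5.61 CPM in female 2 at stage 2, from 35 and 43 counts. At stage 3 it was 36.1 and 41.8 CPM, from 264 and 259 counts. At early stage 5 it was 8.07 and 4.53 CPM, from 53 and 24 counts. Both stage 3 libraries stood above all 4 others, and the early stage 5 values overlapped those of stage 2. From stage 2 to stage 3 the ratio was 10.2 in female 1 (95% counting interval 7.18 to 15.0) and 7.44 in female 2 (5.37 to 10.5). From stage 3 to early stage 5 the level was 4.48-fold lower in female 1 (3.32 to 6.14) and 9.23-fold lower in female 2 (6.06 to 14.7). These intervals are exact binomial and cover counting error only. Among the 14498 gene models with at least 1 CPM in any library, 150 (1.03%) had both untreated stage 3 levels over 4 times every untreated stage 2 and early stage 5 level. The gene *g14866* was one of them and *g16893* was not.

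**Figure D1:**
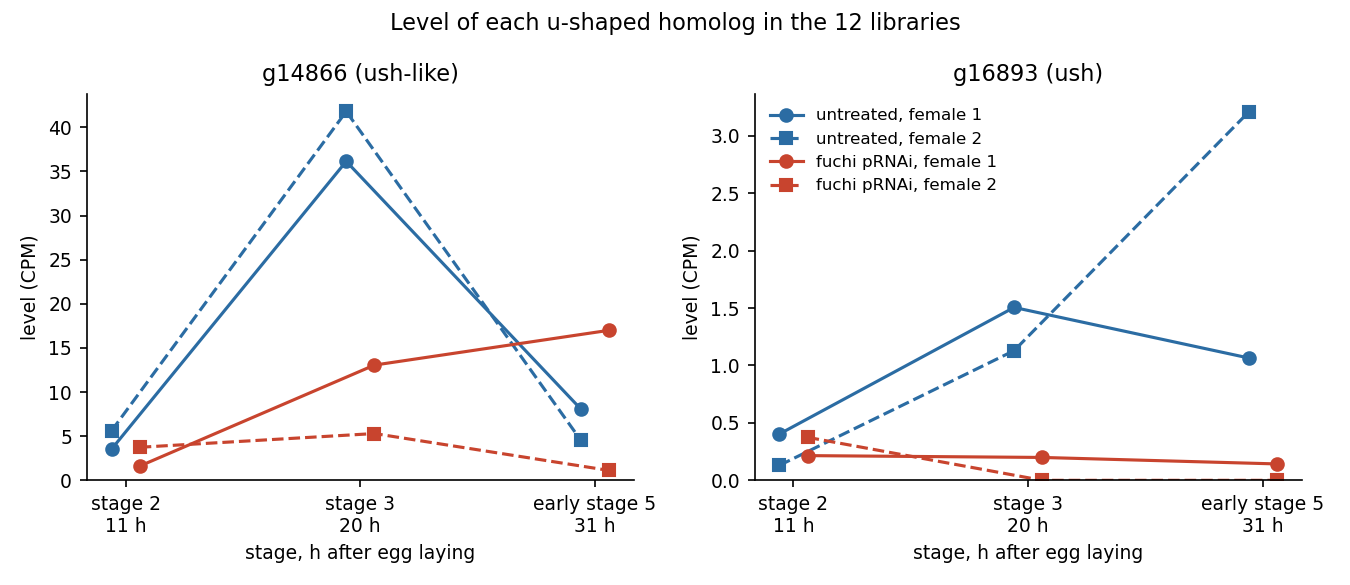
Level in CPM (y axis, a separate scale in each panel) of *g14866* (left) and *g16893* (right) at each stage, with 1 point per library, lines joining the libraries of 1 female and colours for untreated and *fuchi* pRNAi. Untreated *g14866* peaks at stage 3 at 36.1 and 41.8 CPM, and at early stage 5 the *fuchi* pRNAi libraries of the females lie apart at 17.0 and 1.12 CPM.

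The stage-to-stage changes were tested for a change beyond 2-fold (glmTreat of edgeR) in 1 fit of the 12 libraries. The rise of untreated *g14866* from stage 2 to stage 3 had a log2 fold change of 3.09 ± 0.83 (SE) and an adjusted p of 0.0275, against 16.3% of gene models called. It was therefore not called in that fit, although with the female as a block the adjusted p was 0.00560 and the rise was called, with 10.9% of gene models called higher. The lower level at early stage 5 than at stage 3 (log2 fold change -2.62 ± 0.82, adjusted p = 0.106, 7.15% of gene models called) was not called, nor with the block (adjusted p = 0.0252). In a fit of the 6 untreated libraries alone, chosen after seeing the data, both changes were called (adjusted p = 0.00106 and 0.00673).

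The gene *g16893* was close to the detection limit throughout. Untreated embryos gave 4 and 1 counts at stage 2 (0.403 and 0.131 CPM), 11 and 7 at stage 3 (1.51 and 1.13 CPM), and 7 and 17 at early stage 5 (1.07 and 3.21 CPM). The stage 3 and early stage 5 values overlapped, and all 4 were above both stage 2 values. Neither step was called: the log2 fold change was 2.19 ± 1.05 from stage 2 to stage 3 (adjusted p = 0.224) and 0.67 ± 0.93 from stage 3 to early stage 5 (adjusted p = 0.972, same edgeR fit). In these whole-embryo samples, fewer cells with a transcript and less transcript per cell cannot be told apart for either gene.

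Per length, *g14866* was the more abundant homolog in 11 of the 12 libraries. The authors' RPKM values divide *g14866* by a length 1.55 times that of *g16893*. Untreated *g14866* had 0.593 and 0.981 RPKM at stage 2, 5.13 and 5.71 at stage 3, and 0.908 and 0.559 at early stage 5. Untreated *g16893* had 0.105 and 0.0353 RPKM, then 0.331 and 0.238, then 0.185 and 0.612. The ratio of the 2 homologs ran from 0.913 in the untreated early stage 5 library of female 2 to 77.0 in the *fuchi* pRNAi early stage 5 library of female 1, over the 10 libraries with a *g16893* count. The order was thus reversed in 1 library, and at early stage 5 in untreated embryos the levels per length of the homologs overlapped. Over the 12 libraries, the log2 CPM of the 2 genes had a Pearson correlation of 0.42, a description of libraries that share stages, treatments and females.

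**Figure D2:**
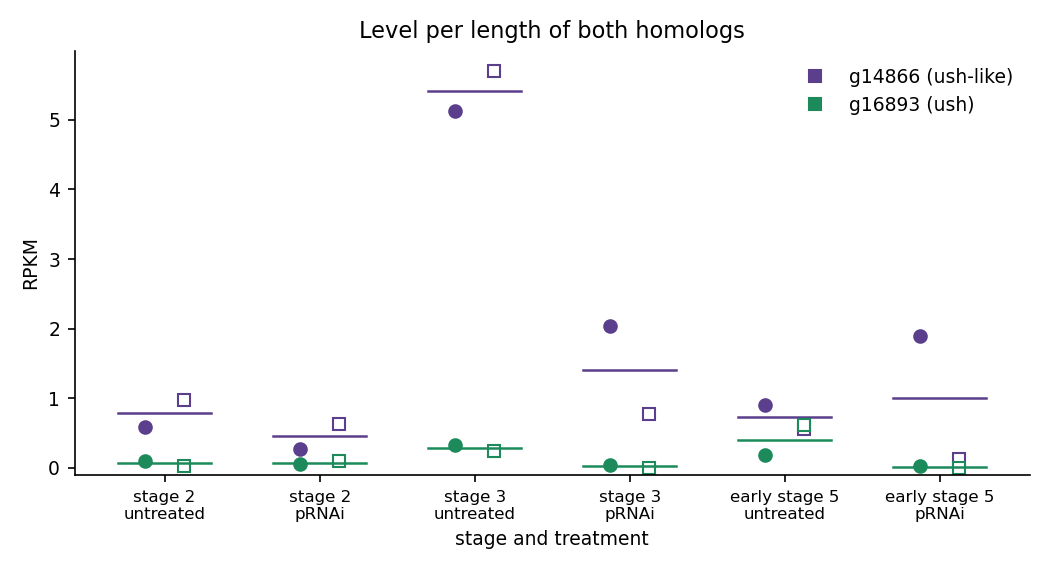
RPKM (y axis) of *g14866* and *g16893* by stage and treatment, with filled circles for female 1, open squares for female 2 and a line at the mean of 2 libraries. The *g14866* values of untreated stage 3, 5.13 and 5.71 RPKM, lie above all others, and *g16893* stays at or below 0.612 RPKM.

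At stage 2, no difference between *fuchi* pRNAi and untreated embryos was called for *g14866*. The level of *g14866* was 3.53 and 5.61 CPM in untreated and 1.61 and 3.75 CPM in *fuchi* pRNAi embryos (means 4.57 ± 1.47 and 2.68 ± 1.51, SD, n = 2), with overlapping groups. Within females, 45.7% (95% counting interval 23.2 to 85.9) of the untreated level was left in female 1 and 66.7% (40.4 to 108.8) in female 2. Its log2 fold change was -0.79 ± 0.62 (adjusted p = 0.983). The edgeR test called 0% of 12079 gene models at stage 2, and *fuchi* itself was not called (-2.27 ± 0.41, adjusted p = 0.983). An unadjusted p under 0.05 was reached by 413 gene models (3.42%), *fuchi* among them and *g14866* not. DESeq2 called 13 gene models. With the female as a block the test called 60 lower (0.497%) and 33 higher (0.273%) gene models, *fuchi* among the lower ones, but not *g14866* (adjusted p = 0.503). The gene *g16893* was at 2 and 3 counts in *fuchi* pRNAi embryos against 4 and 1, and was too low to be tested.

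At stage 3, the peak of *g14866* was lower in *fuchi* pRNAi embryos of both females. The 2 *fuchi* pRNAi libraries had 13.1 CPM (female 1, 131 counts) and 5.30 CPM (female 2, 35 counts), against 36.1 and 41.8 CPM in untreated embryos. The groups did not overlap, as for 20.3% of all gene models tested at this stage with both *fuchi* pRNAi levels below both untreated levels. The mean of 9.18 ± 5.48 (SD, n = 2) was 23.6% of the untreated mean of 39.0 ± 4.0. Within females, 36.1% (95% counting interval 29.1 to 44.7) of the untreated level was left in female 1 and 12.7% (8.64 to 18.1) in female 2. The log2 fold change was -2.05 ± 0.45 and the adjusted p 0.0889, so the difference was not called in the fit without the females (unadjusted p = 0.000814, rank 122 of 13324). Once the female entered as a block it was called (log2 fold change -2.15 ± 0.35, adjusted p = 1.41e-07). With 4 libraries, that fit had little spread of its own to estimate for a gene model and leaned on the other gene models. Its SE and p therefore do not measure the spread between the females, whose counting intervals did not overlap. The first fit called 36 gene models (0.270%), all lower, and the fit with the block called 266 lower (2.00%) and 80 higher (0.600%). The call also depended on the test: the likelihood ratio test of edgeR, DESeq2 and the quasi-likelihood test without a filter on low counts each called *g14866* lower. The size of the difference stood out less than its p, since 398 of the 13324 gene models had a lower log2 fold change.

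For *g16893* at stage 3, *fuchi* pRNAi embryos gave 2 counts in female 1 and 0 in female 2 (0.199 and 0 CPM), against 11 and 7 counts in untreated embryos. The groups did not overlap, against the same 20.3% of gene models. Summed over the females, the untreated level was 11.1 times the *fuchi* pRNAi level, with a wide counting interval of 2.66 to 98.6. The difference was not called (log2 fold change -3.34 ± 1.30, adjusted p = 0.438, edgeR), nor was it when the block was added (adjusted p = 0.0856).

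**Figure D3:**
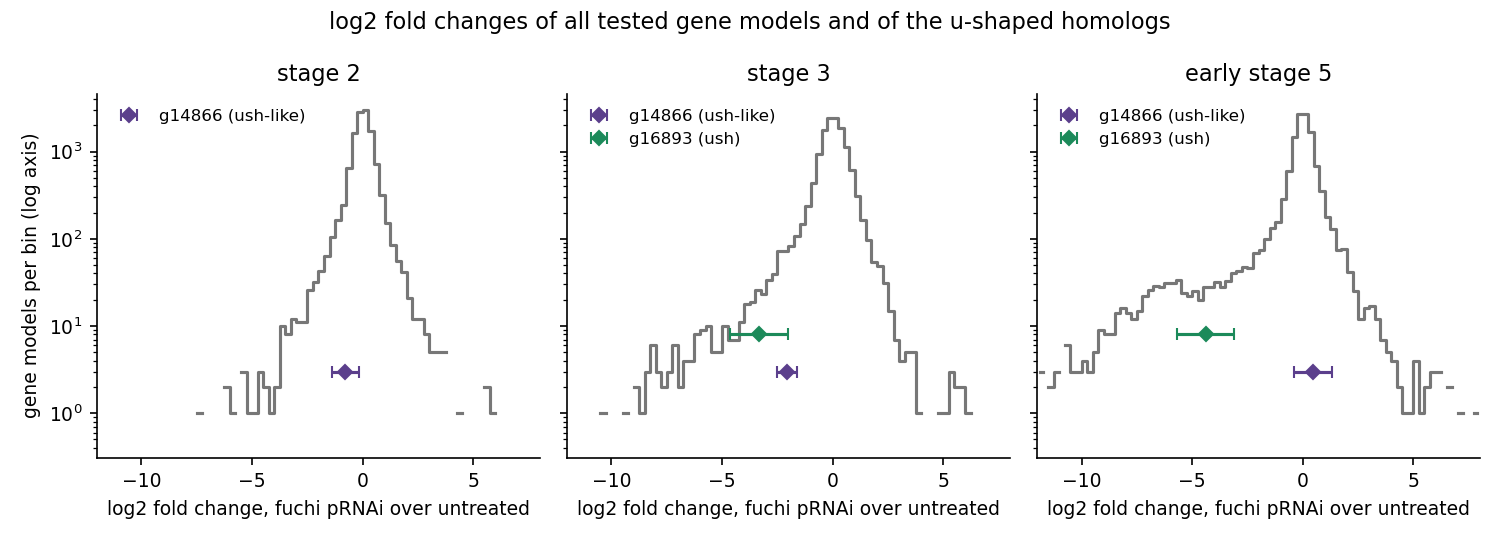
Distribution of the edgeR log2 fold change (x axis, *fuchi* pRNAi over untreated) of all tested gene models at each stage, as the number of gene models per bin (grey line, log axis, values past the axis limits placed in the end bins), with diamonds for the homologs and bars of 1 SE at arbitrary heights. At stage 3 both homologs lie to the left, at -2.05 and -3.34, and at early stage 5 they lie on opposite sides of 0, at 0.47 for *g14866* and -4.39 for *g16893*.

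At early stage 5, the females disagreed on *g14866*. In female 1 the level was 8.07 CPM untreated and 17.0 CPM in *fuchi* pRNAi embryos, from 53 and 119 counts, or 211% (151 to 297). In female 2 it was 4.53 and 1.12 CPM, from 24 and 5 counts, or 24.7% (7.37 to 66.1). The *fuchi* pRNAi values thus enclosed both untreated ones, and their mean of 9.06 ± 11.2 (SD, n = 2) had an SD larger than itself. No difference was called (log2 fold change 0.47 ± 0.85, adjusted p = 0.917; 0.07 ± 0.43, adjusted p = 0.968 with the female as a block), where 3.12% of 12358 gene models were. The SE with the block does not measure the disagreement of the females. Without the *fuchi* pRNAi library of female 1 the log2 fold change was -2.51 (adjusted p = 0.183), so that this library decided the direction. Of the 11922 gene models with at least 20 counts at that stage, 41 (0.344%) moved over 2-fold up in 1 female and over 2-fold down in the other, and 57 (0.478%) had a gap between the females at least as large as that of *g14866*. At this stage 44.5% of the *fuchi* transcript was left in female 1 and 35.7% in female 2.

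For *g16893* at early stage 5, *fuchi* pRNAi embryos gave 1 and 0 counts (0.143 and 0 CPM), against 7 and 17 in untreated embryos. The groups did not overlap, as for 19.3% of the gene models tested. The summed untreated level was 23.2 times that of *fuchi* pRNAi, with a counting interval of 3.78 to 953. The log2 fold change was -4.39 ± 1.29 and was not called by edgeR (adjusted p = 0.116, and 0.0148 with the female block). The difference was called by the likelihood ratio test (adjusted p = 0.00604) and with all counted gene models kept (adjusted p = 0.00597).

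**Figure D4:**
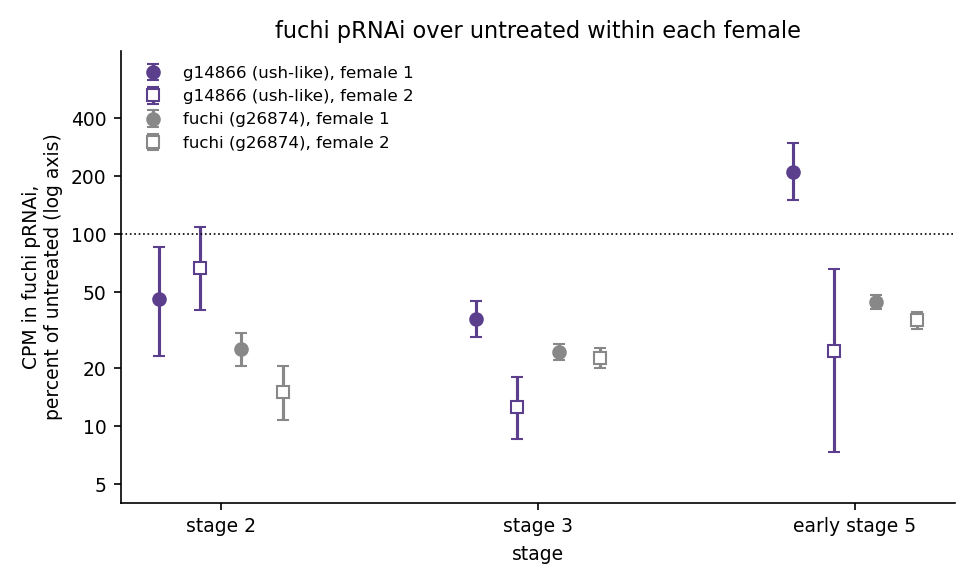
CPM in *fuchi* pRNAi embryos as a percentage of untreated embryos of the same female (y axis, log scale) at each stage for *g14866* and for the targeted gene *fuchi*, with filled circles for female 1, open squares for female 2 and bars for the 95% counting interval. For *g14866* both females lie below 100% at stages 2 and 3 and lie apart at early stage 5, at 211% and 24.7%, while *fuchi* is at 44.5% or less in every pair.

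The time course of *g14866* within *fuchi* pRNAi embryos also differed between the females. In female 1 the level went from 1.61 to 13.1 CPM between stages 2 and 3, a ratio of 8.09 (4.73 to 14.9) against 10.2 in untreated eggs of that female, and then reached 17.0 CPM. In female 2 it went from 3.75 to 5.30 CPM, a ratio of 1.42 (0.844 to 2.39), and then to 1.12 CPM. The counting intervals of the first step did not overlap between the females. Neither step was called in the edgeR fit of the 12 libraries (1.79 ± 0.83, adjusted p = 0.286, and 0.01 ± 0.78, adjusted p = 1), where 11.1% and 7.76% of gene models were called. Whether the *fuchi* pRNAi effect differed between stages was tested as an interaction. For *g14866* the effect at early stage 5 exceeded that at stage 3 by 2.63 ± 1.12 on the log2 scale (unadjusted p = 0.0362, adjusted p = 0.584, against 0.269% of gene models called). The difference between stages 3 and 2 was -1.30 ± 1.15 (adjusted p = 1.00, 0% called, 4.21% with an unadjusted p under 0.05). For *g16893* the effect at early stage 5 was lower than at stage 2 by a log2 value of -4.46 ± 1.80 (unadjusted p = 0.0278, adjusted p = 0.543, 0.504% called). Neither homolog was thus shown to respond differently at different stages.

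The possible partners of the homologs were described from lists of GATA factors, FOG partner corepressors and the BMP pathway. The calls in these lists stand against the share of all gene models called lower, which was 0%, 0.270% and 2.96% over the 3 stages in order, and 0.497%, 2.00% and 6.51% with the female as a block. The shares called higher were 0%, 0% and 0.162%, and 0.273%, 0.600% and 1.47% with the block. Of the 8 GATA family gene models, 3 were tested at stage 2, where none was called without the block and *fuchi* and *Pt-GATA1* were called lower with it, 7 at stage 3, where only *fuchi* was called lower, and 7 at early stage 5, where *fuchi*, *Pt-GATA4* and *Pt-GATA5* were called lower. *Pt-GATA4* (*g25261*) and *Pt-GATA5* (*g8337*), which mark the endoderm in this spider, had mean levels of 42.3 and 24.2 CPM in untreated early stage 5 embryos and 0.143 and 1.01 CPM in *fuchi* pRNAi embryos (adjusted p = 5.42e-05 and 0.00933). At stage 3 *Pt-GATA5* was at 14.9 and 3.92 CPM (log2 fold change -1.93 ± 0.47, adjusted p = 0.146; 7.73e-05 with the female as a block). *Pt-GATA1* (*g20514*) was at 83.9 CPM in untreated stage 2 embryos and 25.4 CPM after *fuchi* pRNAi (adjusted p = 0.983; 3.27e-08 with the female as a block). In untreated embryos *fuchi* was at 228 CPM, the highest mean of the family, at stage 3, when *g14866* peaked, and at 292 CPM at early stage 5, when *g14866* was low. With *fuchi* itself included, the family median of the log2 fold change was -0.54 at stage 3 and -1.10 at early stage 5, against 0.01 and -0.01 over all gene models tested.

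The corepressors that FOG proteins bring to GATA factors were not called at any stage (0 of 12 tested, of 13 in the table, with or without the female as a block). The 12 had mean levels of 44.0 to 976 CPM over all libraries, and the untested model (*g21657*), described as histone deacetylase 1-like, had at most 3 counts in a library. The gene for CtBP (*g27685*) had 819 CPM in untreated stage 3 embryos against 804 CPM after *fuchi* pRNAi (log2 fold change -0.01 ± 0.24, adjusted p = 0.995). The NuRD ATPase Mi-2 (*g7367*) was at 985 and 1070.5 CPM (0.13 ± 0.24, adjusted p = 0.914), and a histone deacetylase (*g13842*) at 516 and 430.2 CPM (-0.25 ± 0.23, adjusted p = 0.818). The median of the 12 was a log2 fold change of -0.18 at stage 3 and 0.21 at early stage 5.

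In the BMP pathway list, 0 of 15 tested were called at stage 2, 0 of 18 at stage 3 and 2 of 18 at early stage 5, both lower, of 27 in the table. The list also holds *g8075* and *g8578*, described as neuropilin and tolloid-like proteins, which share only part of that name with tolloid. Its counts are therefore not of BMP genes alone. The 2 called at early stage 5 were a ligand and an inhibitor by description. One was *g15032*, described as a BMP 2-A-like ligand, at 28.3 CPM untreated and 1.56 CPM after *fuchi* pRNAi (log2 fold change -4.18 ± 0.37, adjusted p = 0.000245). The other was *g17729*, described as noggin-2-like and so named for a family of BMP inhibitors, at 79.7 and 21.0 CPM (-1.98 ± 0.31, adjusted p = 0.00633). The BMP ligand gene *Pt-dpp* (*g16926*) was at 143 and 70.4 CPM (-1.09 ± 0.36, adjusted p = 0.164; 0.000288 with the female as a block). The signal transducers described as Mothers against dpp (*g26552*) and its homolog 4 (*g16672*) had log2 fold changes of 0.18 ± 0.26 and -0.12 ± 0.24 and were not called. With the female as a block, 1 of 15 was called at stage 2, *Pt-dpp*, which was lower (log2 fold change -1.20, adjusted p = 0.000454). With it, 3 of 18 were called at stage 3, 2 of them lower against 2.00% of all gene models and 1 higher against 0.600%, and 4 of 18, all lower, at early stage 5, against 6.51%. The 1 that was higher at stage 3 was the BMP inhibitor gene *Pt-sog* (*g23966*), at 13.1 CPM untreated and 96.5 CPM in *fuchi* pRNAi embryos (2.97 on the log2 scale, adjusted p = 3.96e-16 with the block, and 0.0207 without it).

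The gene *g16893* is one of 10 genes that the study picked, from isolated cells outside these libraries, as candidates for strong expression at the centre of the nascent germ disc. By in situ hybridization at stage 3, the paper saw *g4238*, *g14287* and *g16467* at the embryonic pole. It saw *g15167*, *g5118* and *g20850* there and also broadly on the abembryonic side, and it names no such signal for *g16893*. In whole embryos *g16893* was the lowest of the 10, with a mean of 0.698 CPM over the 12 libraries. Of these genes, 0 of 4 tested were called at stage 2, 2 of 10 were called lower at stage 3, against 0.270% of all gene models, and 4 of 10 at early stage 5, against 2.96%, and none was called higher. With the female as a block, 4 of 10 were called lower at stage 3 (2.00% of all gene models), and at early stage 5 there were 4 called lower (6.51%) and 1, *Pt-twist*, called higher (1.47%). The 2 at stage 3 were *g132* and *g20850*, both uncharacterized, at 21.5 and 89.2 CPM untreated and 0 and 1.13 CPM after *fuchi* pRNAi. At early stage 5, *g15167*, described as EF-hand domain-containing protein D2, and *g5118*, uncharacterized, were lower as well, at 246 and 21.3 CPM untreated and 8.98 and 1.38 CPM after *fuchi* pRNAi. *Pt-twist* (*g14287*) and the cumulus gene *Pt-Ets4* (*g4238*) of the same group were not called without the block (log2 fold changes of -0.20 ± 0.40 and -0.60 ± 0.28 at stage 3). The name *Pt-twist* follows its description as twist-related protein 2-like. The paper's text does not equate *g14287* with its mesoderm marker *Pt-twi*. Over the 10, the median log2 fold change was -2.19 at stage 3 and -2.42 at early stage 5.

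*Pt-twist* was the gene of these lists whose log2 CPM was most like that of *g14866* over the 12 libraries (Pearson r = 0.66, rank 396 of 14497 gene models), next to *g16467* of the germ disc centre group, described as orthopedia-like (0.66, rank 441). In untreated embryos it had 0.908 and 0.914 CPM at stage 2, stood at 19.4 and 23.4 CPM by stage 3 and later at 4.72 and 1.32 CPM at early stage 5, so that its highest untreated values fell at the same stage. In *fuchi* pRNAi embryos at stage 3 it was at 24.2 CPM in female 1 and 12.4 CPM in female 2. Its *fuchi* pRNAi levels therefore enclosed the untreated ones at stage 3, where those of *g14866* were below them. At early stage 5 it was at 13.4 and 8.96 CPM, above both untreated values (log2 fold change 1.79 ± 0.56, adjusted p = 0.139; 1.88, adjusted p = 0.000349 with the female as a block).

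**Figure D5:**
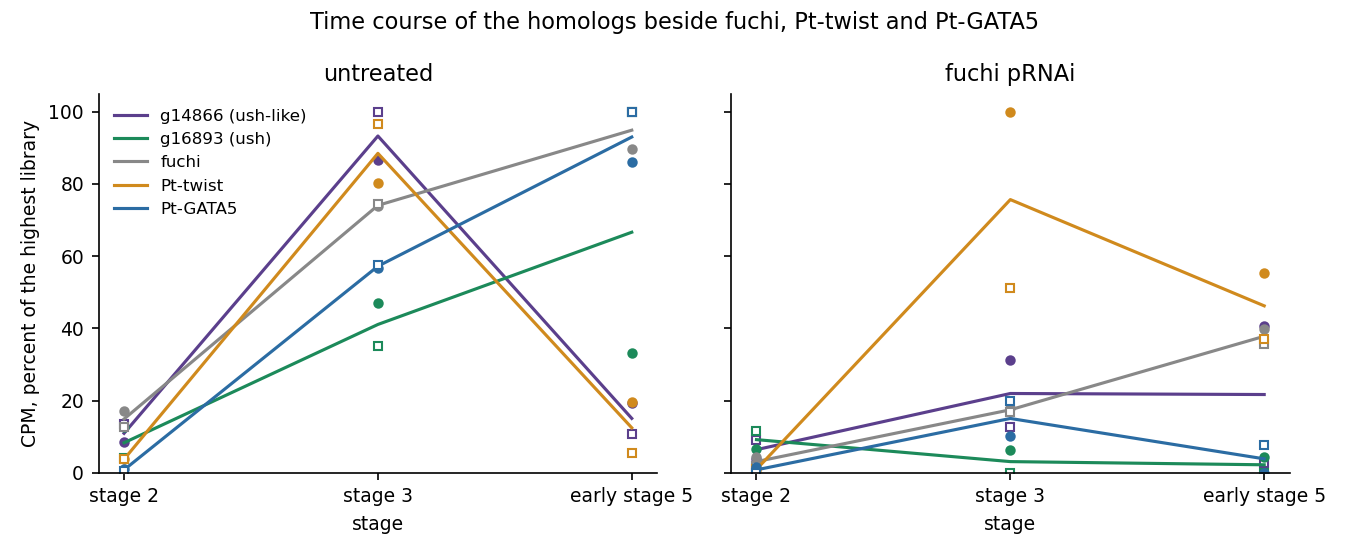
Mean CPM at each stage as a percentage of the gene's highest library (y axis) in untreated (left) and *fuchi* pRNAi embryos (right), with filled circles for female 1 and open squares for female 2; *Pt-twist* and *Pt-GATA5* were added after their values were seen. Untreated *g14866* and *Pt-twist* both peak at stage 3, whereas the means of *g16893*, *fuchi* and *Pt-GATA5* are highest at early stage 5.

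The gene models most like each homolog were ranked by the Pearson correlation of log2 CPM over the 12 libraries, which share stages, treatments and females. For *g14866*, 3 of the first 5 were undescribed models at most 1.17 CPM in any group mean, *g11073* (r = 0.90), *g18802* (0.89) and *g2337* (0.89). The fifth, *g6001* (0.87), is uncharacterized. The fourth, *g4798* (0.88), described as a SETMAR-like histone-lysine methyltransferase, had untreated means of 41.8, 90.4 and 47.2 CPM over the 3 stages. In *fuchi* pRNAi embryos of early stage 5 it was at 83.1 CPM in female 1 and 39.0 in female 2, libraries that the ranking itself had used. No gene model exceeded an r of 0.9 with *g14866*, against 20 with *g16893*. The 5 first for *g16893* were *g26914*, described as gamma-butyrobetaine dioxygenase (0.93), the uncharacterized *g8561* (0.93), 2 models of 1 gene for a pancreatic triacylglycerol lipase-like protein, *g18859* (0.93) and *g17559* (0.92), and *g11530*, described as a galactoside fucosyltransferase-like protein (0.92). Of these, *g26914* was at 29.1 CPM untreated at stage 3 and 249 CPM at early stage 5, and at 0.225 and 0.286 CPM in *fuchi* pRNAi embryos. The other 4 reached at most 6.76 CPM in any group mean, where counts were sparse.

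Markers of germ disc regions also differed between *fuchi* pRNAi and untreated embryos, and their summed levels are given for female 1 and then female 2. At stage 3, where both homologs had lower levels, the 2 endoderm markers summed to 16.6 and 15.3 CPM untreated and 3.39 and 5.91 CPM after *fuchi* pRNAi, and the 3 rim markers (*Pt-hh*, *Pt-fkh* and *Pt-otd*) to 110.1 and 120.5 against 33.8 and 33.2 CPM. In untreated embryos, *Pt-GATA5* gave 14.8 and 15.0 CPM of the endoderm sum. *Pt-GATA4* gave 1.78 and 0.323 CPM, from 13 and 2 counts. The paper also saw *Pt-GATA5* transcript in cumulus cells at stage 5. The 4 genes listed as cumulus, blastopore and mesoderm markers, *Pt-twist* among them, summed to 304 and 299 against 156 and 112 CPM. Most of that gap lay in *Pt-Delta*, with means of 173 and 43.0 CPM. *Pt-Ets4* was lower as well, at 104.9 and 68.6 CPM. *Pt-twist* was at 21.4 and 18.3 and *Pt-msx1* at 2.80 and 4.05 CPM, and the log2 fold changes of the 4 had a median of -0.40. The paper describes the early *Pt-Delta* and *Pt-hh* patterns as similar to that of *fuchi*, which includes cells on the abembryonic side. In untreated stage 3 embryos, *Pt-hh* gave 74.1 and 82.3 CPM of the rim sum. The paper also uses *Pt-fkh* as a marker of mesoderm and endoderm. The cumulus, blastopore and mesoderm sum is therefore not of those regions alone. Nor is the rim sum of rim cells alone. *Pt-GATA1*, a dorsal germ disc marker of late stage 5 in the paper, had its highest untreated mean at stage 2, at 83.9 CPM. At stage 3 the 2 genes listed as markers of the germ disc outside the endoderm went opposite ways. *Pt-sog* went from a mean of 13.1 to 96.5 CPM and *Pt-GATA1* from 7.18 to 4.88 CPM. Their sum was 18.2 and 22.4 CPM untreated and 73.0 and 129.8 CPM after *fuchi* pRNAi. In that comparison, 0 of these 11 markers were called without the block (0.270% of all gene models) and 5 with it, *Pt-GATA5*, *Pt-hh*, *Pt-fkh* and *Pt-Delta* lower (2.00%) and *Pt-sog* higher (0.600%).

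At early stage 5, where *g14866* was higher in *fuchi* pRNAi embryos of female 1 and lower in those of female 2, the endoderm, rim and cumulus sums were lower in both females. The endoderm sum was 59.4 and 73.6 CPM untreated and 0.286 and 2.02 CPM in *fuchi* pRNAi embryos. The rim sum was 522 and 467 against 265 and 229.6 CPM, and the cumulus, blastopore and mesoderm sum 411 and 472 against 316 and 262 CPM. The gap in the cumulus, blastopore and mesoderm sum lay in *Pt-Delta*, with means of 323 CPM untreated and 131 CPM after *fuchi* pRNAi. *Pt-Ets4* was at 70.4 and 103.6, *Pt-twist* at 3.02 and 11.2 and *Pt-msx1* at 45.0 and 43.6 CPM. The log2 fold changes of the 4 had a median of 0.19. The sum of *Pt-GATA1* and *Pt-sog* was 119 and 95.9 CPM untreated and 232 and 90.5 CPM after *fuchi* pRNAi, the only one of these 4 sums that was higher in female 1. The part of these changes in the levels of the homologs was not tested.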

How the data were processed

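Poly(A) RNA of pooled whole embryos was sequenced by the authors in single-end runs on a MiSeq. The deposited counts were made by the authors with HTSeq 0.6.1p1 on AUGUSTUS models (assembly Ptep_1.0), as the labels state, and the deposited RPKM values were made by the authors from these counts. For these libraries, aligner and strand setting were not given in the sources used here. Both members and all lists were chosen with earlier results of these data known. Treatment was tested within each stage on 4 libraries with edgeR 4.0.16 in R 4.3.3 (TMM, gene models reaching 1 CPM in any of them, quasi-likelihood F test, adjusted p under 0.01 over all gene models). Stage-to-stage changes and interactions came from 1 fit of 12 libraries with 6 group means. The SE was taken as the size of the log2 fold change over the root of F. CPM used the effective totals of the 12 libraries, and correlations used log2 CPM with a prior count of 2. Ratios of counts carry exact binomial 95% intervals.

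Alternatives were the female as a block, DESeq2 size factors in edgeR, no filter, 1 CPM in at least 2 libraries, the likelihood ratio test, DESeq2 1.42.0, 1 fit of 12 libraries, limma 3.58.1 on log2(RPKM + 1) and log2(RPKM + 0.1), and leaving out each library. Within a stage, the block left little spread per gene model, so those SE and p values do not measure the spread between females. Fits of 6 libraries of 1 treatment were added after seeing the data. Replicates were separate females, named in the labels, and deviations of the same female's libraries from their group means correlated at 0.568, 0.454 and 0.413 at the 3 stages. Replicates were no duplicates of each other: their counts gave a mean chi-square of 28.0 to 44.1 for each gene model. Named genes were both homologs, called members of the GATA, corepressor, BMP and germ disc centre lists with up to 3 abundant uncalled ones, and the 5 gene models most correlated with each homolog. Markers, *Pt-twist*, *Pt-dpp*, *Pt-sog* and *Pt-GATA5* beyond that rule were named after their values were seen. The code was tested on simulated data. The reference gene table belongs to another assembly, and its coordinates were not used.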

Additional observations from a re-analysis of the deposited data

Results flagged for a closer look

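The *fuchi* pRNAi effect on *g14866* at early stage 5 pointed in opposite directions in the females. The log2 ratio of *fuchi* pRNAi over untreated in female 1 exceeded that in female 2 by 3.09. The levels were 8.07 and 17.0 CPM in female 1 and 4.53 and 1.12 CPM in female 2. This difference between the females was not tested, since each female gave 1 library per group. For *g16893* at stage 2, the log2 ratio in female 1 minus that in female 2 was -2.43, from 4 and 2 counts in female 1 and 1 and 3 counts in female 2. That difference was not tested either. Of the 11759 gene models with at least 20 counts at stage 2, 42.4% had opposite directions in the females. That set did not hold *g16893*, which had fewer counts. The share was 39.4% of 11922 at early stage 5. Only 0.344% moved over 2-fold up in 1 female and over 2-fold down in the other, and 0.478% had a gap at least that of *g14866*.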

How the results depend on the processing

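Each group held 2 libraries, and *g16893* had at most 17 counts in a library, too few at stage 2 for a test. Values below are adjusted p. For *g14866* at stage 3 (0.0889), the difference was called with the replicate block, the pairing by female (1.41e-07), without a filter on low counts (0.000205), by the likelihood ratio test (0.00398) and by DESeq2 (0.00179), and leaving out 1 library gave 0.0112 to 0.249. The untreated rise of *g14866* from stage 2 to stage 3 (0.0275) was called with the replicate block (0.00560), without a filter (1.23e-05), in the test for any change (0.00838) and, chosen after seeing the data, in the 6 untreated libraries alone (0.00106), and leaving out 1 library gave 0.00416 to 0.145, called without either *fuchi* pRNAi library of early stage 5. Its lower level at early stage 5 (0.106) was called without a filter (0.000677) and in the 6 untreated libraries (0.00673). For *g16893* at early stage 5 (0.116), no filter gave 0.00597 and the likelihood ratio test 0.00604. The interaction of *g14866* between early stage 5 and stage 3 (0.584) was called without a filter (0.00587). The replicate block changed no other call of the homologs. No call was lost under any alternative, as none was made for the homologs in the main tests.

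The direction turned for *g14866* at early stage 5 with limma on log2(RPKM + 0.1) (adjusted p = 0.970), and leaving out 1 library gave adjusted p of 0.171 to 0.975. For the step from stage 3 to early stage 5 in *fuchi* pRNAi embryos it turned for *g14866* with the replicate block, without a filter and in the 6 *fuchi* pRNAi libraries alone (adjusted p = 1 in each), and leaving out 1 library gave 0.0881 to 1 for *g14866* and 0.705 to 1 for *g16893*. It also turned when 1 library was left out for the interactions of early stage 5 with stage 3 (0.147 to 1.00 for *g14866*, 0.876 to 1.00 for *g16893*) and with stage 2 (0.579 to 1.00 for *g14866*), and for untreated *g16893* from stage 3 to early stage 5 (0.749 to 1). The cause was not tested.

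The number of gene models called for the *fuchi* pRNAi effect moved from 0, 36 and 386 at the 3 stages to 93, 346 and 986 with the replicate block, 30, 208 and 898 without a filter, 4, 141 and 833 by the likelihood ratio test, and 13, 129 and 539 by DESeq2, and at stage 3 to 10 and 11 with limma. The interactions called 0, 39 and 73 gene models, against 9, 99 and 160 with the block, 33, 247 and 279 without a filter, and 21, 141 and 200 by DESeq2. The 4 stage-to-stage tests called 2360, 1036, 1606 and 1125, against 4776, 2656, 3679 and 2795 when any change counted.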
